A study of Mus musculus with 24 samples.

Results

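Many mammalian genes lie so close together that 1 stretch of chromatin serves the ends of both. The regions described here are stretches of acetylated chromatin of that kind. Histone H3 acetylated at lysine 9 (H3K9ac) was mapped by chromatin immunoprecipitation and sequencing, and the peaks of 8 libraries were merged wherever they overlapped by at least 1 bp. A merged region was kept when it lay on an autosome, had a peak in all 8 lists and overlapped the windows of 1 kb either side of an annotated start or end of at least 2 different protein-coding genes. Of 26034 merged regions, 10002 were autosomal and present in all 8 lists, and 1897 of those (19%) met the rule. Members were thus selected on the called H3K9ac peaks themselves, by their presence in every list and their position. A further 6665 regions lay at the ends of 1 gene only, and 1440 lay at no gene end. The shared regions thus made up 22.2% of the regions at gene ends and touched 3706 different protein-coding genes. Most of them, 1733, lay at 2 genes, 155 at 3, 7 at 4 and 2 at 5.

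The cells were mouse embryoid bodies of strain C57BL/6 at day 5, the aggregates that embryonic stem cells form as they begin to differentiate. Clones 4_1 and 6_1 were Gcn5 fx/fx, homozygous for the floxed allele of Gcn5, and clones 4_C2 and 6_C4 were Gcn5-/- (null below). Each clone is a separate isolate with 2 replicate libraries, and the labels join 4_1 with 4_C2 as isolate pair 4 and 6_1 with 6_C4 as isolate pair 6. Any property of 1 clone is therefore carried by both of its libraries. The other 16 samples of the series (total H3 and input) were not used here.

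When 2 genes start close together on opposite strands, their promoters form a bidirectional promoter: a nucleosome-poor stretch, usually within a CpG island, from which RNA polymerase II leaves in both directions. Housekeeping genes of DNA repair, mitochondria and translation are often arranged in this way. H3K9ac marks the nucleosomes on either side of active starts. Gcn5, encoded by Kat2a, is the acetyltransferase of the SAGA and ATAC coactivator complexes and is one of the enzymes that place this mark.

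The stretch between the starts of a head-to-head pair is the sequence both genes share, and 8 such pairs are shown because they stand for the groups described below: a DNA repair gene, an antigen-processing pair, a histone pair, a pair among the lowest genotype p-values, 2 genes of respiratory complex I, a SAGA subunit and a proteasome subunit. Each is the 300-base promoter window of the gene on the plus strand, from 250 bases before its start to 50 after, read 5′ to 3′ from the RefSeq promoter table of GRCm38.p6, whose primary sequence is mm10. Capitals mark the stretch from the start of one gene to the start of the other.
Brca1/Nbr1, chr11:101551857-101552156: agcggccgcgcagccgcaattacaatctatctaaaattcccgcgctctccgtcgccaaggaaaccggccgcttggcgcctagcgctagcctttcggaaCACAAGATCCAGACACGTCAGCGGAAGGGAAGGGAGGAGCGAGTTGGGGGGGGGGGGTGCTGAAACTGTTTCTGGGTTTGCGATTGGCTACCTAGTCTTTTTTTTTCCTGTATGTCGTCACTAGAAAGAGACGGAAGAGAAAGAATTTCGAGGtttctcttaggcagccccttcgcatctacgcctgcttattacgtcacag
Psmb9/Tap1, chr17:34187306-34187605: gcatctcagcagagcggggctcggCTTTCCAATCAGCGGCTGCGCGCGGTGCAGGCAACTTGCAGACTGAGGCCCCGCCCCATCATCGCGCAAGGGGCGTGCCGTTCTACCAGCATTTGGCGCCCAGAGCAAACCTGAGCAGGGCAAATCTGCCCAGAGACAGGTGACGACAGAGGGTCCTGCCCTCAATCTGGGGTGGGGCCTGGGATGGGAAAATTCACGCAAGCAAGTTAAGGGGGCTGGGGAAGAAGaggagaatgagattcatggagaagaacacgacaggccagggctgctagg
H2ac15/H2bc15, chr13:21753826-21754125: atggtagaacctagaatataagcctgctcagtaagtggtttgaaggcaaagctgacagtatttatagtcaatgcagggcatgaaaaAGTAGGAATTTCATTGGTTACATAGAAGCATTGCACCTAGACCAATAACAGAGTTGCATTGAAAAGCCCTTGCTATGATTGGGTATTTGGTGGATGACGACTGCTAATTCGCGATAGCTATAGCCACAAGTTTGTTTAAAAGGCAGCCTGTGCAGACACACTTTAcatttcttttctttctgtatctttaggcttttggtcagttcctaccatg
Eif2b1/Gtf2h3, chr5:124578898-124579197: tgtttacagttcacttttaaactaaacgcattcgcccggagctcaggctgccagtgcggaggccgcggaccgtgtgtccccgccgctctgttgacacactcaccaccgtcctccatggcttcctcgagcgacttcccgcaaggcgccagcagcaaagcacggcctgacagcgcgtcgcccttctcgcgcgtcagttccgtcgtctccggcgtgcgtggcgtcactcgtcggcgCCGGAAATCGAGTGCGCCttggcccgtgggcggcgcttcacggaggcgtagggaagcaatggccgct
Ndufs3/Kbtbd4, chr2:90904490-90904789: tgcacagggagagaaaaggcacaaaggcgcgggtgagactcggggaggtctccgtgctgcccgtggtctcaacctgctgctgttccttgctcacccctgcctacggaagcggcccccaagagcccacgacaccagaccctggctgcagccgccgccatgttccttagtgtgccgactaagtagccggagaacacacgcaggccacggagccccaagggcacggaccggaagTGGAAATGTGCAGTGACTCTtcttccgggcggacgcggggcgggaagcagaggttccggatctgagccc
Vmac/Ndufa11, chr17:56717512-56717811: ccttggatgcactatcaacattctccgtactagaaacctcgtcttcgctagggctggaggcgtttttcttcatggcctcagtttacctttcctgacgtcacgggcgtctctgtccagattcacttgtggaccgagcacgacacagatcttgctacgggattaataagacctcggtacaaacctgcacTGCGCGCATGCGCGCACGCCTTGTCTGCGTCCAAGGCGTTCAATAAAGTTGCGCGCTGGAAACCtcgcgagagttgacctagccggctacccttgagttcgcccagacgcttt
Taf5l/Urb2, chr8:124021247-124021546: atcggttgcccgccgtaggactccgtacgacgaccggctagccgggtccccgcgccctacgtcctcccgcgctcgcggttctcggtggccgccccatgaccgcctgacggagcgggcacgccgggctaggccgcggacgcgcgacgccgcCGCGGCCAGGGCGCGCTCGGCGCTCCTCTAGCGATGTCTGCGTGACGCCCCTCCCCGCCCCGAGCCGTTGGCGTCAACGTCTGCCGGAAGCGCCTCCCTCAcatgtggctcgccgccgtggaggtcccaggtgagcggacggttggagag
Ftsj3/Psmc5, chr11:106255935-106256234: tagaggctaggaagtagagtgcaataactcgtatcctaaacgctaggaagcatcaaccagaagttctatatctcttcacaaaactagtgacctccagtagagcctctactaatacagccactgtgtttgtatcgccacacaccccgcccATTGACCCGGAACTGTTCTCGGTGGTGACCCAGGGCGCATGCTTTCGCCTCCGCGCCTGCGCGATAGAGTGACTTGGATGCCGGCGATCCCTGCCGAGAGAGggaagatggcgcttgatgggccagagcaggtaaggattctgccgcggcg

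The starts lay 17 bp apart at Eif2b1/Gtf2h3, 19 bp at Ndufs3/Kbtbd4, 63 bp at Vmac/Ndufa11, 100 bp at Taf5l/Urb2, 152 bp at Brca1/Nbr1, 164 bp at H2ac15/H2bc15 and 226 bp at Psmb9/Tap1. GC content ranged from 40% in the histone window, with 3 CpG dinucleotides, to 74.7% in the Taf5l/Urb2 window, with 50. The histone window is the one of these 8 with a TATA box.

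The deposited lists give positions only, so the measurements were the covered length (base pairs of a region under called peaks in a library), the number of peaks in the region and the position of their edges. How strong the signal was within a peak cannot be read from them. The lists held 12041 to 20809 peaks, with 12041 to 15315 in the libraries of pair 4 and 17849 to 20809 in those of pair 6. The shortest list was that of 4_C2 replicate 2. Sequencing depth is unknown, and its part in list length and peak width was not tested. The labelled cell type was compared with markers by a peak at a gene end. Of 5 pluripotency genes, Sox2 and Klf4 had one in all 8 lists, Nanog and Pou5f1 in 7 and Zfp42 in 5. Of 4 epiblast genes, Dnmt3b, Pou3f1 and Fgf5 had one in all 8 and Otx2 in 6. The neuroectoderm genes had one in 8 lists (Nes), 7 (Sox1) and 1 (Pax6), and the endoderm genes in 5 (Sox17, Foxa2 and Gata6) and 1 (Gata4). Of 6 feeder fibroblast genes, Twist2 had one in 6 lists, Thy1 in 3, Col1a1, Col1a2 and Pdgfrb in 1, and Col3a1 in 0. Each of 5 mesoderm genes, among them T and Mesp1, had a peak in 4 to 6 lists, and the blood genes Ptprc, Hbb-bt and Hba-a1 had none in any list. In such bulk chromatin, a mark in fewer cells and a weaker mark in each cell cannot be told apart.

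Head-to-head pairs were the most frequent arrangement. Strand was known for both genes at 1310 of the 1733 regions with 2 genes. Of those, 809 (61.8%) held 2 starts on opposite strands, 386 (29.5%) held the start of one gene and the end of the other on the same strand, and 58 held a start and an end on opposite strands. A further 37 held 2 starts on the same strand, and 20 held only ends. Strand was missing from the table for 1 or both genes at the remaining 423 regions, which are counted in no arrangement.

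Starts of head-to-head pairs were close. The median distance was 39 bp, with quartiles of -183 and 156 bp, where a negative value means that the transcribed spans overlap. The spans overlapped in 295 pairs (36.5%), and 543 pairs (67.1%) had starts within 300 bp of each other. Chromosomes differed in how often a region at a gene end was shared, from 12.6% of such regions on chromosome 18 to 31.6% on chromosome 17 and 30.2% on chromosome 7.

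Shared regions were wider than regions at 1 gene in each library. Their median covered length was 2700 and 2590 bp in 4_1, 2591 and 2226 bp in 4_C2, 3177 and 3252 bp in 6_1, and 2956 and 2941 bp in 6_C4. Regions at 1 gene had medians of 2197, 2077, 2119, 1763, 2483, 2594, 2352 and 2307 bp in the same order. The ratio of the medians stayed between 1.22 and 1.28. A wide region meets more gene ends than a narrow one, so width and membership are linked by the rule, and this difference is a description with no test. By arrangement, the median over regions of the mean covered length was 2979 bp for head-to-head pairs, 2494 bp for a start and an end on the same strand, 1857 bp for ends only and 3371 bp for 3 or more genes.

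**Figure D1:**
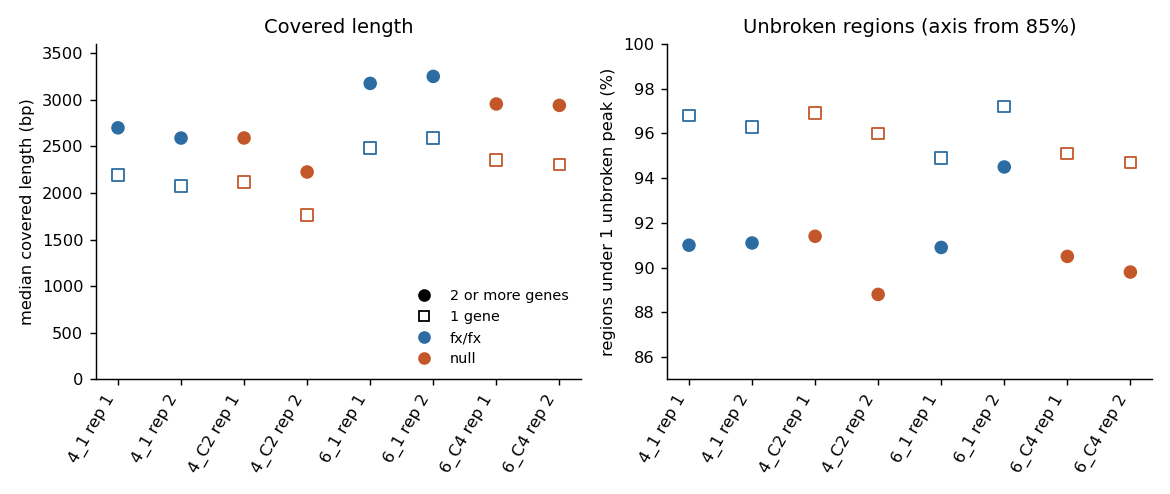
Median covered length in bp (left) and percent of regions under 1 unbroken peak (right, axis from 85%) in each of the 8 libraries, for regions at 2 or more genes (filled circles) and at 1 gene (open squares), with fx/fx libraries in blue and null libraries in orange. Circles lie above squares on the left in all 8 libraries (2226 to 3252 bp against 1763 to 2594 bp) and below them on the right (88.8% to 94.5% against 94.7% to 97.2%).

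The genotypes overlapped in these library medians. For shared regions the mean of the 4 library medians was 2930 bp ± 333 (SD, n = 4) in fx/fx and 2678 bp ± 346 (SD, n = 4) in null. For regions at 1 gene it was 2338 bp ± 241 (SD, n = 4) and 2135 bp ± 268 (SD, n = 4). Within both genotypes the libraries of pair 6 were wider than those of pair 4, and the lowest value was that of 4_C2 replicate 2.

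Most shared regions lay under 1 unbroken peak. The share was 91% and 91.1% in 4_1, 91.4% and 88.8% in 4_C2, 90.9% and 94.5% in 6_1, and 90.5% and 89.8% in 6_C4. In regions at 1 gene it ran from 94.7% to 97.2%. Of the 1897 shared regions, 1384 were unbroken in all 8 libraries and 17 in none. The 5 most broken included Dido1/Gid8, at chr2:180698164-180713118, where covered length ran from 7105 bp in 4_C2 replicate 2 to 14558 bp in 6_C4 replicate 1, and Tubb5/Mdc1, which pairs a beta-tubulin gene with a DNA damage mediator. At Tubb5/Mdc1 the 4 libraries of pair 4 had 3380 to 5256 bp and the 4 of pair 6 had 6279 to 8771 bp.

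One peak usually covered both starts of a head-to-head pair. This held for 90% and 87.8% of the 809 pairs in 4_1, 90.2% and 81.2% in 4_C2, 92.1% and 93.3% in 6_1, and 91% and 90.4% in 6_C4. It held in all 8 libraries for 632 pairs (78.1%). The low value of 81.2% again came from the library with the shortest list. In the 34 to 93 head-to-head regions per library that were split into 2 peaks, the break fell at or between the starts in 5 to 45 regions and inside a gene in 29 to 48. By distance, the mean share of unbroken regions over libraries was 93.3% for the 397 pairs with starts 0 to 300 bp apart and 84.5% for the 41 pairs with starts over 1000 bp apart.

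The peak reached into each gene of a head-to-head pair about as far as it reached into a gene with a region of its own. Measured from the annotated start to the downstream edge of the peak, the median reach at head-to-head pairs was 1418 and 1411 bp in 4_1, 1359 and 1243 bp in 4_C2, 1630 and 1682 bp in 6_1, and 1556 and 1526 bp in 6_C4. At starts of 1-gene regions it was 1490, 1446, 1420, 1263, 1652, 1722, 1573 and 1566 bp in the same order, so the ratio ran from 0.952 to 0.989. Upstream of these lone starts the peak reached a median of only 443 to 826 bp. In shape, a head-to-head region therefore had a downstream side in both directions, in each of the 8 libraries. By genotype, the head-to-head reach was 1535 bp ± 141 (SD, n = 4) in fx/fx and 1421 bp ± 147 (SD, n = 4) in null, and these ranges overlapped. Within each pair they did not: both null libraries lay below both fx/fx libraries, before any centring.

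**Figure D2:**
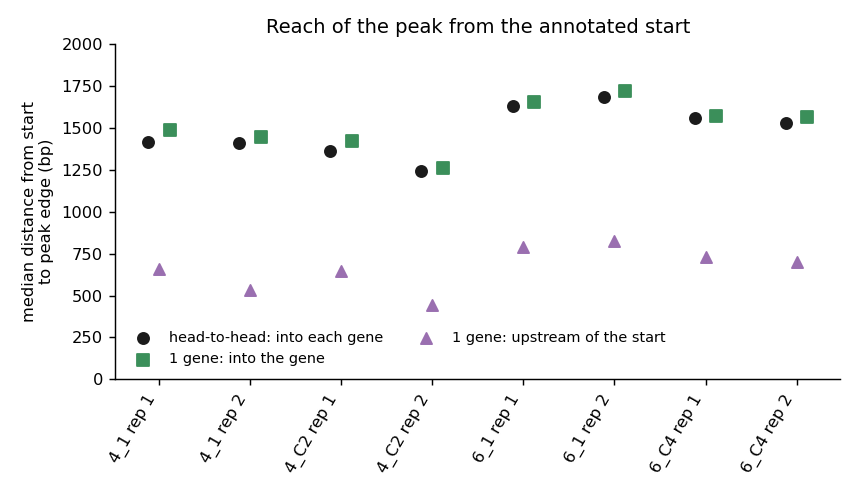
Median distance in bp from an annotated start to the edge of the peak that covers it, per library: into each gene of a head-to-head pair (black circles), into the gene at 1-gene regions (green squares) and upstream of the start at 1-gene regions (purple triangles). Circles and squares lie within 5% of each other (ratio 0.952 to 0.989), and triangles lie at 443 to 826 bp.

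At pairs on the same strand the peak belonged mainly to the start. Over the 386 such pairs, the start lay under a peak in 88.3% to 95.1% of pairs per library. The end of the neighbouring gene lay under one in 39.6% and 35.2% in 4_1, 37% and 30.3% in 4_C2, 49.2% and 53.6% in 6_1, and 44.8% and 43.5% in 6_C4. The share at ends was higher in the 4 libraries of pair 6, which had the longer lists, than in the 4 of pair 4. The second gene end lay inside the merged region itself at 770 of 809 head-to-head pairs (95.2%), at 224 of 386 same-strand pairs (58%) and at 1559 of all 1897 regions (82.2%), and otherwise within the window around it. Of the 5 regions closest to the limit, Dvl3/Ap2m1 had its second end 998 bp away and a mean covered length of 2644 bp ± 568 (SD, n = 8), while the nearest region outside, at Cebpzos with Cebpz 1001 bp away, had 2044 bp ± 328 (SD, n = 8).

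As a description, the share of regions at 2 genes was lowest among regions of 1 list. The share at 2 or more genes was 1.7% of the 6607 autosomal regions seen in 1 list, 3.84% of the 1458 seen in 4 lists, 8.38% of the 1432 seen in 7 and 19% of those seen in all 8. Of the 120 regions at 2 or more genes that were missing from 1 list, 77 were missing from that of 4_C2 replicate 2 and 25 from that of 4_1 replicate 2. Autosomal regions at 2 or more genes were also counted whatever their number of lists. Of these, none was present in the 4 fx/fx lists and absent from the 4 null lists, and none showed the reverse. The same was not counted over all regions, so this describes no trait of regions at 2 or more genes.

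The promoter windows of the member genes were rich in CpG, as were those of genes with regions of their own. Windows of 1616 genes at head-to-head regions had a median GC content of 62.7% and a median CpG observed-to-expected ratio of 0.84. The 5232 starts at 1-gene regions had 62.7% and 0.81, the 6240 starts with a sequence but no region in any list had 47.3% and 0.19, and all 16457 autosomal starts with a sequence had 56.7% and 0.60. Base composition thus set both kinds of marked start apart from unmarked ones, and hardly from each other.

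Motif shares lay further apart between the 2 kinds of marked start, again without a test. Exact letters were searched on both strands, each motif separately, and none of the letter strings contains another. The ETS letters (CCGGAAG), the core recognised by GABPA and other ETS factors, were present in 27.2% of head-to-head windows, 18.5% of windows at 1-gene regions and 12.3% of all windows. The NRF1 letters (GCGCANGCG), part of the site of a regulator of respiratory genes, were present in 19.6%, 15.6% and 9.08%. The YY1 letters (AAGATGGCG) followed the same order with 5.38%, 3.31% and 1.92%. So did the letters for Zbtb33, the protein also called Kaiso (TCGCGAGA), with 3.96%, 2.35% and 1.48%.

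Other motifs went the other way or differed little. The GC box (GGGCGG) was present in 65.3% of head-to-head windows, 71.9% of windows at 1-gene regions and 47.3% of all windows, and the TATA box (TATAAA) in 4.39%, 6.02% and 13.5%. The CCAAT box (its name gives the letters) was present in 39.7%, 38.3% and 39.1%. The E-box bound by Myc (CACGTG) was present in 10.9%, 10.7% and 7.97%, the cyclic AMP response element (TGACGTCA) in 3.9%, 3.59% and 2.4%, and the letters for ZNF143 (CTACAATTC) in 1.11%, 0.822% and 0.547%. Since the windows of 2 paired genes overlap and can hold the same match, the shares were also taken over the 808 plus-strand genes alone, which gave 28.3% for ETS, 19.3% for NRF1, 6.06% for YY1, 65.5% for the GC box and 3.96% for the TATA box. Of the windows printed above, Ndufs3/Kbtbd4 and Taf5l/Urb2 held the ETS letters, Vmac/Ndufa11 and Ftsj3/Psmc5 the NRF1 letters, and H2ac15/H2bc15 the TATA box. A match is a string of letters and says nothing of whether a factor was bound in these cells.

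**Figure D3:**
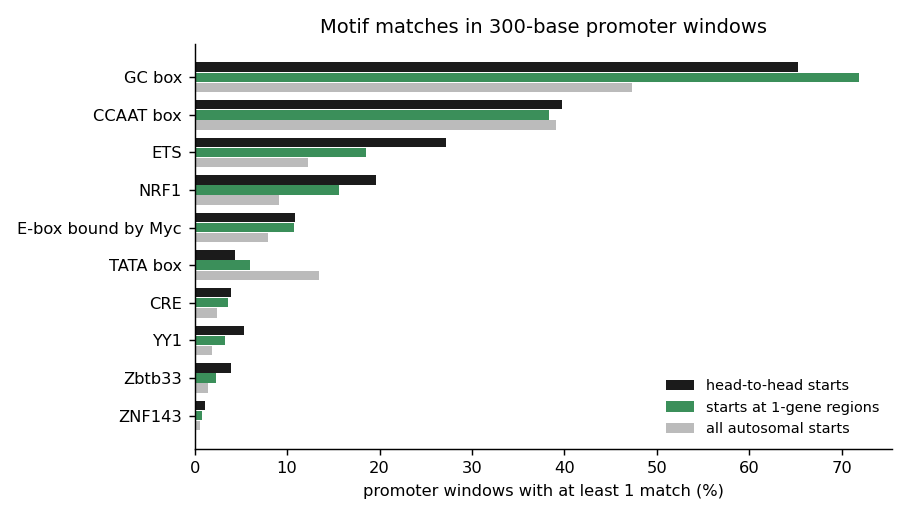
Percent of 300-base promoter windows with at least 1 match to each of 10 motifs, for starts at head-to-head regions (black), starts at 1-gene regions (green) and all autosomal protein-coding starts with a sequence (grey). The ETS bars stand at 27.2%, 18.5% and 12.3%, and the TATA box bars at 4.39%, 6.02% and 13.5%.

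Genes of several housekeeping functions had high shares at shared regions, given here as counts with no test. Of genes with an end at a shared region or a 1-gene region, 37.1% of all protein-coding genes had one at a shared region. This was 3706 of 9978 genes. On the same denominator, the share was 62.5% for NADH dehydrogenase genes (25 of 40), 56.1% for DNA repair (23 of 41), 54.1% for mitochondrial ribosomal proteins (40 of 74), 66.7% for the chaperonin (6 of 9) and 47.9% for cytosolic ribosomal proteins (35 of 73). It was 32.4% for the proteasome (11 of 34) and 35.3% for DNA replication (12 of 34). The replication-dependent histones, which are clustered, had 70.4% (38 of 54), and the region with the histone genes H2ac8, H2bc8, H2bc7, H2ac7 and H3c4 was 1 of the 2 regions at 5 genes. Aminoacyl-tRNA synthetases had 41.7% (15 of 36). A shared region is not always head-to-head. Of all genes at shared regions, 1616 of 3706 were at head-to-head pairs of known strand. This count was 27 of 40 for mitochondrial ribosomal proteins, 15 of 23 for DNA repair, 14 of 25 for NADH dehydrogenase and 6 of 6 for the chaperonin. It was 7 of 15 for the synthetases, 6 of 11 for the proteasome and 5 of 12 for DNA replication. Cytosolic ribosomal proteins had 6 of 35 and histones 8 of 38.

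Developmental regulators had low shares. Of all 20665 autosomal protein-coding genes, 17.9% had an end at a shared region and 51.7% had none at either kind of region. Of 74 homeobox and Sox genes, 3 had an end at a shared region and 14 at a 1-gene region, and 57 (77%) had neither. Of 24 FGF ligands and receptors, 1 had an end at a shared region, Fgf11, and 18 (75%) had neither. The subunits of SAGA and ATAC, the complexes that hold Gcn5, were divided evenly, with 11 of 22 at shared regions and 11 at 1-gene regions.

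Of 15 gene pairs known as bidirectional promoters, all 15 had a shared region. Strand gave 11 as head-to-head and was missing for 4, and 9 were unbroken in all 8 libraries. Their mean covered length ran from 2209 bp at Psmb9/Tap1, which encode an immunoproteasome subunit and a peptide transporter, to 8118 bp at Wrap53/Trp53. At Atm/Npat, which pairs the DNA damage kinase with a coactivator of histone genes, covered length was 3960 and 4306 bp in 4_1, 3975 and 3524 bp in 4_C2, 4524 and 4438 bp in 6_1, and 4125 and 3928 bp in 6_C4. At Brca1/Nbr1, which pairs the homologous recombination gene with an autophagy receptor, it was 4492 and 4108, 5237 and 3695, 5836 and 7072, and 5762 and 5069 bp in the same order. The genotypes overlapped at both regions.

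Loss of Gcn5 was compared with fx/fx by limma on log2 covered length, centred on each library's median over the 10171 regions with a peak in every list, sex chromosomes included, and with a term for the isolate pair. Before centring, the null libraries lay 0.14 lower on the log2 scale at the median of all regions (a shift of -0.14), so the differences below are relative to that shift. No shared region passed an adjusted p of 0.05 in either direction (0 of 1897), against a background of 0% of all 10171 regions. At an unadjusted p under 0.05, 65 shared regions were wider in null (3.43%, background 3.72%) and 71 were narrower (3.74%, background 3.22%). This near balance holds after centring only. Without centring, 6 shared regions were wider and 275 narrower at an unadjusted p under 0.05 by limma, and 0 passed the adjusted threshold. No share over all regions is given for these 2 uncentred counts. With centring, the median log2 difference, null minus fx/fx, was 0.002 over shared regions, 0.016 over regions at 1 gene and 0.016 over all regions tested. It was below 0 at 937 shared regions (49.4%), against 44.4% of regions at 1 gene. From the 5th to the 95th percentile, the shared regions ran from -0.28 to 0.22. Regions of the 12 gene lists above had medians from -0.10 for the homeobox and Sox genes (2 regions) to 0.11 for the FGF genes (2 regions), with 0.06 for the histones (16 regions) and 0.02 for SAGA and ATAC (11 regions). The median absolute difference between the replicates of a clone at shared regions was 0.12 to 0.19 on the same scale.

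The Kat2a region, at chr11:100710715-100715040, is itself shared by 3 genes: the start of Kat2a, the small heat shock gene Hspb9 and the end of Rab5c, an endosomal GTPase. Its covered length was 3522 and 3416 bp in 4_1, 3087 and 2975 bp in 4_C2, 4024 and 3558 bp in 6_1, and 3209 and 3258 bp in 6_C4. All 4 null libraries were below all 4 fx/fx libraries in bp. The centred difference was -0.08 ± 0.09 (log2, SE; adjusted p = 0.869, limma), which did not pass. A called peak at a start does not show whether the allele was deleted, so these values check no label.

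The 4 regions in each direction with the lowest genotype p are given although none was called. Choosing by lowest p favours groups that do not overlap, and overlap of the genotypes was not counted over all regions. Overlap is therefore given only as a description. Rps6kb1/Tubd1, at chr11:86542016-86546984, pairs the S6 kinase with delta-tubulin. Its covered length was 3635, 3275, 3956 and 3229 bp in the 4 fx/fx libraries and 4406, 4212, 4904 and 4460 bp in the 4 null libraries. The groups did not overlap, with a centred difference of 0.49 ± 0.10 (log2, SE; adjusted p = 0.625, limma). Arhgap27/Plekhm1, at chr11:103359126-103365248, holds the start of a GTPase-activating protein gene and the end of a lysosomal adaptor gene. It had 4385, 3827, 4242 and 3979 bp in fx/fx and 5458, 4490, 5530 and 4685 bp in null, also without overlap (0.43 ± 0.09 log2, adjusted p = 0.625, limma).

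Anapc11/Npb/Pcyt2, at chr11:120605607-120610106, had the largest genotype difference of the shared regions. It holds the end of an anaphase-promoting complex gene, the neuropeptide B gene and a gene of phospholipid synthesis. Covered length was 1454, 1377, 1959 and 1496 bp in fx/fx and 4216, 1794, 2443 and 4316 bp in null, and the groups overlapped (1.08 ± 0.23 log2, adjusted p = 0.714, limma). Cnih2/Rab1b had 1416, 1277, 1436 and 1742 bp in fx/fx and 1493, 1293, 2870 and 2879 bp in null, with overlap in pair 4.

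On the narrower side, Recql/Golt1b, at chr6:142385711-142390538, pairs a RecQ DNA helicase with a Golgi transport gene. It had 3419, 3058, 4740 and 4542 bp in fx/fx and 2596, 2118, 2669 and 2907 bp in null, without overlap (-0.46 ± 0.09 log2, adjusted p = 0.625, limma). Palb2/Dctn5, at chr7:122129691-122134361, pairs a partner of BRCA2 with a dynactin subunit. It had 2840, 2950, 4480 and 4196 bp in fx/fx and 2480, 2069, 2530 and 2270 bp in null, again without overlap (-0.47 ± 0.12 log2, adjusted p = 0.714, limma). Eif2b1/Gtf2h3, at chr5:124576643-124582399, pairs a translation initiation factor subunit with a TFIIH subunit. It had 3652, 3568, 4898 and 5006 bp in fx/fx and 2271, 2240, 4131 and 3001 bp in null, and the groups overlapped. The histone region H3c13/H2bc18 had 2635, 2491, 3403 and 3695 bp in fx/fx and 1754, 1367, 2668 and 2645 bp in null, with the null library of each pair below the fx/fx libraries of the same pair.

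**Figure D4:**
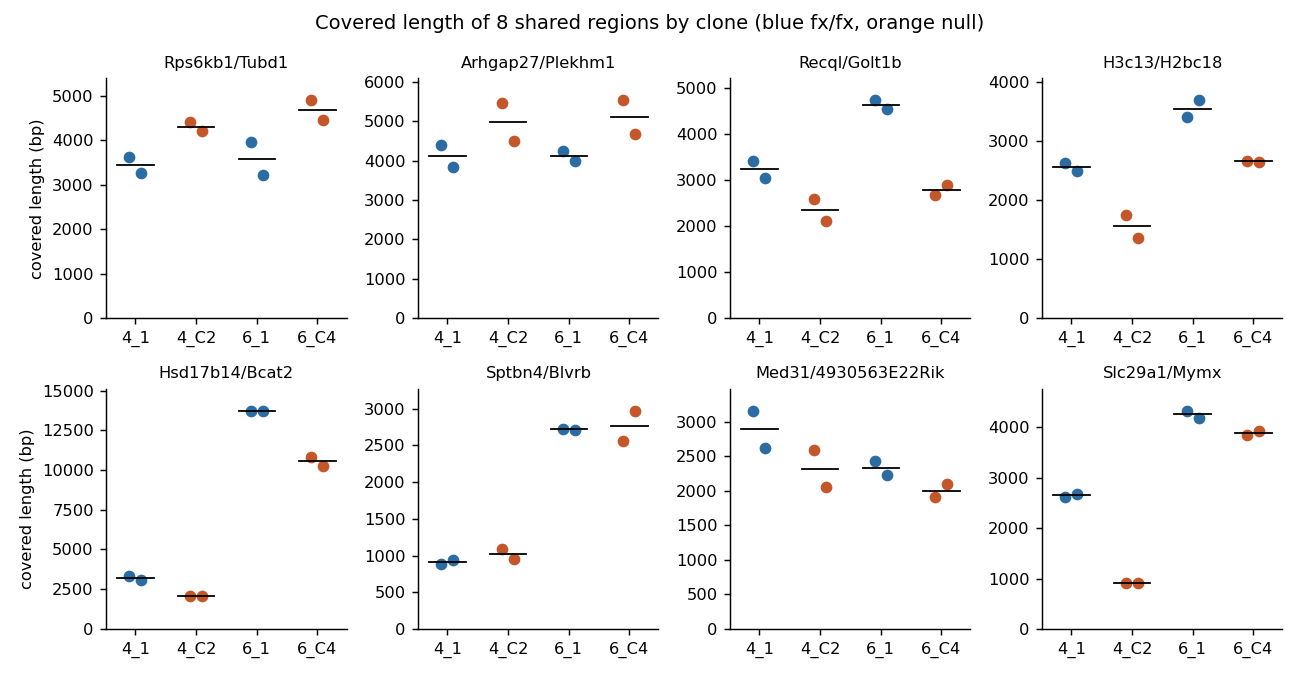
Covered length in bp of 8 shared regions in the 4 clones, with 1 point per library (blue fx/fx, orange null) and a line at the mean of the 2 replicates. In the upper row the null clones lie on one side of the fx/fx clone of their own pair; in the lower row the pairs differ, or 4_C2 stands apart (906 and 904 bp at Slc29a1/Mymx).

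The genotype difference was also compared between the isolate pairs. No shared region passed an adjusted p of 0.05 in limma's interaction test (0 of 1897, background 0%). At an unadjusted p under 0.05, 47 had a higher null minus fx/fx difference in pair 6 (2.48%, background 2.76%) and 73 a lower one (3.85%, background 3.89%). The lowest p belonged to Slc29a1/Mymx, at chr17:45598803-45603128, where a nucleoside transporter gene adjoins the gene of the muscle fusion peptide myomixer. It had 2624 and 2684 bp in 4_1, 906 and 904 bp in 4_C2, 4326 and 4191 bp in 6_1, and 3849 and 3928 bp in 6_C4 (interaction 1.4 ± 0.18 log2, adjusted p = 0.208, limma). Mmab/Mvk, a cobalamin enzyme and mevalonate kinase, had 2422 and 1962 bp in 4_1, 836 and 991 bp in 4_C2, and 2916 to 3387 bp in the 4 libraries of pair 6. At both regions 4_C2 was the low clone. In the opposite direction, Cygb/Prcd had 1655 and 1461 bp in 4_1, 2625 and 2335 bp in 4_C2, 1619 and 1628 bp in 6_1, and 1200 and 1415 bp in 6_C4.

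More shared regions passed between the isolate pairs than between the genotypes. In the same fit, 100 shared regions were wider in pair 6 than in pair 4 (5.27%, background 4.32%) and 26 were narrower (1.37%, background 2.52%), 126 in all (6.64%, background 6.83%). At an unadjusted p under 0.05, 286 were wider (15.1%, background 12.6%) and 178 narrower (9.38%, background 13%). The pair 6 lists were also the longer ones, and before centring the pair 6 libraries lay 0.26 higher on the log2 scale at the median of all regions. Without centring, 607 shared regions were wider in pair 6 (32%, background 26.8%) and 0 were narrower by limma (background 0.216%), with 3 narrower at an unadjusted p under 0.05. Of the 100 wider regions, 99 lay higher in bp in each library of pair 6 than in each of pair 4. The same held, called or not, for 678 of all 1897 shared regions (35.7%) and 29.7% of all 10171. For the 100, the median over regions was 2571 bp in pair 4 and 4884 bp in pair 6. Of the 26 narrower regions, 1 lay lower in bp in each library of pair 6, so "narrower" there means relative to the median of each library. With each list limited to its 12041 widest peaks, 83 were wider (4.78%, background 3.95%) and 26 narrower (1.5%, background 2.08%). The counts depended on each library: without any 1 of the 8, the narrower regions numbered 4 (without 6_C4 replicate 1) to 15 and the wider ones 43 (without 6_1 replicate 1) to 80. Over all regions tested the counts fell too, from 256 narrower to between 47 and 127, and from 439 wider to between 246 and 380.

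The widest difference was at Hsd17b14/Bcat2, at chr7:45565214-45579442, which holds a hydroxysteroid dehydrogenase gene and the start of the mitochondrial branched-chain aminotransferase. Its covered length was 3326 and 3057 bp in 4_1, 2064 and 2083 bp in 4_C2, 13718 and 13699 bp in 6_1, and 10839 and 10266 bp in 6_C4 (1.96 ± 0.09 log2, adjusted p = 2.22e-05, limma). At Sptbn4/Blvrb, at chr7:27447600-27450647, which pairs a spectrin with biliverdin reductase B, the 4 libraries of pair 4 had 886 to 1085 bp and the 4 of pair 6 had 2554 to 2970 bp (1.24 ± 0.09 log2, adjusted p = 0.000226, limma). At Diaph1/Hdac3, which holds a formin gene and a histone deacetylase gene, pair 4 had 1579 to 1998 bp and pair 6 had 4171 to 5271 bp (1.09 ± 0.11 log2, adjusted p = 0.00101, limma). Gm27021/Emc8/Cox4i1, Ercc1/Cd3eap/Ppp1r13l, Hnrnpc/Rpgrip1, Mfsd10/Nop14, Tomm20/Rbm34, Ctbp2/Gm35364 and Xkr8/Smpdl3b were also wider in pair 6. At Xkr8/Smpdl3b pair 4 had 1320 to 1546 bp and pair 6 had 4235 to 5291 bp. The call there depended on the merging: without 6_C4 replicate 1 the merged region spanned 1750 bp in place of 5623 bp. The difference of -0.11 (adjusted p = 0.525, limma) in that setting belongs to the smaller region.

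Over the gene lists, the regions wider in pair 6 were 2 of 43 for the mitochondrial ribosome, 2 of 7 for the chaperonin and 1 of 18 for aminoacyl-tRNA synthetases. They were 1 of 24 for DNA repair and 1 of 11 for SAGA and ATAC. Of all shared regions 5.27% were wider and 1.37% narrower, against 4.32% and 2.52% of all 10171 regions. No list was tested against these shares. Of 16 histone regions 1 was wider and 1 narrower, of 2 FGF regions 1 was narrower, and the other lists had no call. The SAGA region was Taf5l/Urb2. Its covered length was 3685 and 4334 bp in 4_1, 2596 and 2590 bp in 4_C2, 7106 and 5921 bp in 6_1, and 5851 and 6094 bp in 6_C4 (adjusted p = 0.0203, limma). The bidirectional pairs Mrps12/Sars2 and Col4a1/Col4a2 were the 2 of the 15 that were wider in pair 6. Mrps12/Sars2 encode a mitochondrial ribosomal protein and the mitochondrial seryl-tRNA synthetase, and had 1680 to 3014 bp in pair 4 and 3474 to 4174 bp in pair 6 (adjusted p = 0.0326, limma). Col4a1/Col4a2, which encode basement membrane collagen, had 1463 to 2251 bp and 2790 to 3737 bp (adjusted p = 0.0399, limma).

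Calls between the pairs were uneven over chromosomes. Of the 26 shared regions narrower in pair 6, 20 lay on chromosome 11, which held 207 of the 1897 regions. Over all regions tested, 142 of the 256 narrower ones were on that chromosome. Of the 100 wider shared regions, 23 were on chromosome 7 (11.9% of the 193 shared regions there, against 6.63% of all regions there) and 19 on chromosome 8 (15.2% of 125, against 13.2%). On chromosome 11, 9.66% of the shared regions and 14.8% of all regions were narrower. The median difference of shared regions was -0.25 on chromosome 11 and 0.19 on chromosome 8, against -0.04 to 0.10 on the other autosomes. The share of all peaks on chromosome 11 was 10.1% to 12.1% in the libraries of pair 4 and 8.59% to 9.01% in those of pair 6. On chromosome 8 it was 5.14% to 5.76% and 6.1% to 6.49%. Their part in the calls was not tested. Without these 2 chromosomes, a count made after the data were seen, 80 of the 1565 remaining shared regions were wider in pair 6 and 6 narrower. The share over all regions without them was not computed, so these counts describe no trait of shared regions.

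Named regions on chromosome 11 included Med31/4930563E22Rik, at chr11:72212890-72216108, which holds the start of a Mediator subunit gene. It had 3157 and 2621 bp in 4_1, 2592 and 2049 bp in 4_C2, 2433 and 2225 bp in 6_1, and 1904 and 2093 bp in 6_C4 (-0.52 ± 0.09 log2, adjusted p = 0.0117, limma). Stxbp4/Cox11, the latter a cytochrome c oxidase assembly gene, had 2550 to 3535 bp in pair 4 and 2667 to 2999 bp in pair 6 (-0.43 ± 0.08 log2, adjusted p = 0.0182, limma). At both regions the pairs overlapped in bp. The narrower calls were the less stable ones: of 136 values recomputed for the 10 named regions under other settings, 42 lost the call. Of 139 for the 10 named wider regions, 1 lost the call in the same direction and 1 lost it with a reversed direction. Hes7/Aloxe3, Mcrip1/Ppp1r27, Nt5c3b/Klhl10, Chrnb1/Fgf11, Mgat4b/Ltc4s and 4921536K21Rik/Dusp18, all on chromosome 11, were narrower in pair 6 as well. Jrkl/Ccdc82 and Fyco1/Xcr1, on chromosome 9, were the other two of the 10 named.

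The genotype values of pair 4 also varied between chromosomes. Over the 207 shared regions of chromosome 11, the median null minus fx/fx difference was 0.14 in pair 4 and 0.00 in pair 6, and over the 86 of chromosome 1 it was -0.12 and 0.00. The peak share of chromosome 11 was 10.1% in both 4_1 libraries and 12.1% and 11.1% in 4_C2. Rps6kb1/Tubd1, Arhgap27/Plekhm1 and Anapc11/Npb/Pcyt2 all lie on chromosome 11, and all were wider in null within each pair. The difference was 0.47 in pair 4 and 0.51 in pair 6 at Rps6kb1/Tubd1, and 0.42 and 0.43 at Arhgap27/Plekhm1 (log2). It was larger in both pairs at Anapc11/Npb/Pcyt2. The part of the chromosome in these differences was not tested.

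**Figure D5:**
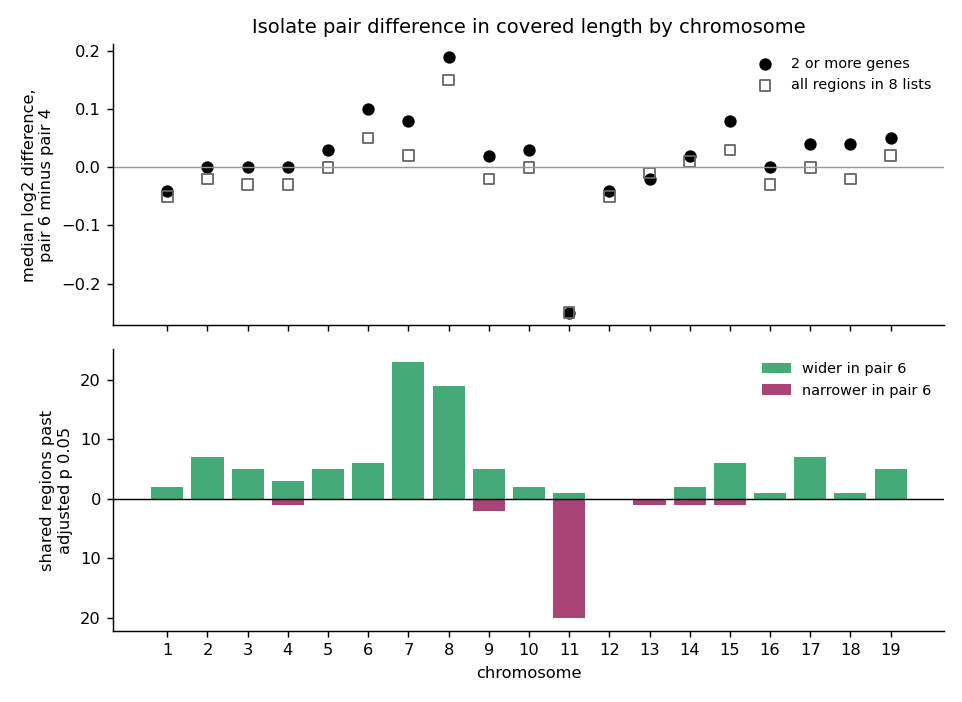
Upper panel: median log2 difference in centred covered length, pair 6 minus pair 4, on each autosome, for shared regions (filled circles) and all regions in the 8 lists (open squares). Lower panel: number of shared regions past an adjusted p of 0.05, wider (green, upwards) or narrower (purple, downwards) in pair 6. Chromosome 11 stands at -0.25 with 20 narrower regions, and chromosome 8 at 0.19 with 19 wider ones.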

How the data were processed

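The 8 H3K9ac libraries of 24 samples were analysed. The authors deposited 1 peak list per library, holding positions (chromosome, start and end; no height, score or p-value), and Bowtie 1.1.2, MACS 1.4.2 and mm10 come from the software and builds listed, per the submitters' processing notes. The sources used here do not state the calling threshold, control library or filters. Depth is unknown, and no interval that needs counts is printed.

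Peaks were merged where they overlapped by 1 bp, and each region was annotated with protein-coding genes of the RefSeq table (GRCm38.p6, 21887 genes), strand coming from its promoter table (17492 genes). Log2 covered base pairs, centred on each library's median, were fitted with limma 3.58.1 (R 4.3.3) over 10171 regions with terms for genotype and isolate pair, or their interaction, and Benjamini-Hochberg adjusted over all of them at 0.05. The labels describe the replicates as independent experiments. In these fits the replicate libraries of a clone counted as separate samples. The SE and p-values therefore do not separate the spread between clones from that between replicates. The fit was tested on simulated data. The members and lists were chosen with earlier results of these data known. Named regions were the textbook pairs, up to 10 called regions per direction and fit by lowest p (4 where none was called), up to 3 per list, and the 5 widest, narrowest, most broken, richest in genes and nearest the window's limit. Alternatives tried were the replicate number, centring, span, merging distance, window, list length, gene overlap, starts only, regions in 4 lists and each library left out. Total H3 and input samples were left out because the question concerns H3K9ac.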

Additional observations from a re-analysis of the deposited data

Results flagged for a closer look

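In 128 groups of 4 libraries, 6 values stood far from the other 3 by Dixon's test at its 95% critical value; chance alone flags about 1 group in 20. The share of shared regions under 1 unbroken peak was 94.5% in 6_1 replicate 2, against 90.9% to 91.1% in the other fx/fx libraries. The share of head-to-head pairs with both starts under 1 peak was 81.2% in 4_C2 replicate 2, the library with the shortest list, against 90.2% to 91% in the other null libraries. At Mgat4b/Ltc4s the covered length was 2285 bp in 4_1 replicate 1, against 1896 to 1951 bp in the other fx/fx libraries, and 2447 bp in 4_C2 replicate 1, against 2011 to 2074 bp in the other null libraries. At Chrnb1/Fgf11 it was 1552 bp in 4_1 replicate 1, against 1283 to 1317 bp. At Tmc6/Tmc8 it was 3828 bp in 4_C2 replicate 1, against 1594 to 1754 bp.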

How the results depend on the processing

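For null against fx/fx, limma called 0 shared regions under each alternative run, and the 8 regions named for it kept their direction. Over all regions, limma called 17 of 15383 narrower in null with regions in at least 4 lists. It called 1 narrower without 4_C2 replicate 2, without 6_C4 replicate 1 or without 6_C4 replicate 2. The median difference of shared regions was -0.13 without centring and lay between -0.01 and 0.01 when 1 library was left out. With the replicate block, 0 shared regions were called for genotype and 114 for isolate pair, against 126. The 114 were 93 wider and 21 narrower, with 430 and 199 over all 10171 regions. Replicate differences correlated weakly between the clones of a pair, at 0.14 for 4_1 with 4_C2 and 0.09 for 6_1 with 6_C4. Between clones of different pairs the correlations ran from -0.06 to 0.02. The interaction stayed at 0 except with regions in at least 4 lists, which gave 14 shared regions, 12 higher (0.551%, against 1.86% of all regions) and 2 lower (0.0918%, against 0.39%) in pair 6. For isolate pair, the count was 607 without centring and 50 to 94 when 1 library was left out, over 1.5 times lower for 7 of the 8 libraries; it was 78 without 4_1 replicate 1, 66 without 4_1 replicate 2, 78 without 4_C2 replicate 2, 50 without 6_1 replicate 1, 59 without 6_1 replicate 2, 52 without 6_C4 replicate 1 and 67 without 6_C4 replicate 2. The counts over all regions also fell whenever 1 library was left out. With regions in at least 4 lists the count for isolate pair was 58 wider (2.66%, against 6.63% of all regions) and 56 narrower (2.57%, against 2.65%). Of the 20 regions named for it, Xkr8/Smpdl3b changed direction without 6_C4 replicate 1, at -0.11 over a smaller merged region. Its difference reached 1.58 when other libraries were left out. Apart from that reversed value, which also lost the call, 43 of 275 recomputed values lost the call, 42 of them at the regions named as narrower. The number of shared regions was 932 from gene starts only, where genes of unknown strand drop out, and 1878 to 1970 when 1 library was left out. The mean share under 1 unbroken peak was 86.8% when peaks were merged across gaps of 500 bp, 93.7% with equal-length lists and 91.1% to 91.9% when 1 library was left out. Depth is unknown, and how far it limits these values was not tested.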
